A study of Rattus norvegicus with 15 samples.

Results

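Amino acid catabolism and the urea cycle were examined in rat liver as a set of 49 listed genes, which code for the enzymes and carriers that strip nitrogen from amino acids, burn their carbon skeletons and turn ammonia into urea. A gene was represented by a probe set of the array whose annotation named that gene alone, and where several did, by the probe set with the highest mean over all 15 arrays. By this rule 48 of the 49 genes were measured, out of 14217 genes with such a probe set in the series, and Amdhd1 of the histidine pathway was not analysed here. The choice of a probe set within a gene used only the overall mean and not the difference between diets. The genes of the set, and the other gene lists used below, were chosen with earlier results of these data known.

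The livers came from male Sprague-Dawley rats that were 4 weeks old at the start, had 5 days to adapt and then ate their diet for 14 days. In the genistein group the diet held genistein at 2 g/kg, in the daidzein group daidzein at 2 g/kg, and in the control group no isoflavone, with 5 arrays each. All 3 diets shared the same base, with casein at 200 g/kg as the protein and palm oil at 100 g/kg. Genistein and daidzein are soy isoflavones that bind estrogen receptors, and genistein differs by an additional hydroxyl group. The study set both compounds side by side for their effects on hepatic lipid metabolism. The titles call the arrays of a diet biological replicates, and nothing else states that they came from separate animals, so p-values measure the spread between these arrays.

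The liver is the main site where most dietary amino acids in excess are broken down. Aminotransferases and dehydratases remove the amino group, glutamate dehydrogenase frees ammonia from glutamate, and the urea cycle of periportal hepatocytes, which spans mitochondria and cytosol, builds urea from it. Hepatocytes around the central vein instead hold ornithine aminotransferase and glutamine synthetase, and glutamine synthetase captures the ammonia that escapes. Several of these genes, with tyrosine aminotransferase (Tat) and serine dehydratase (Sds) as the classic examples, are induced in liver by glucocorticoids, by glucagon through cyclic AMP, by fasting and by high protein intake, and are held down by insulin.

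A level is a log2 signal restored from the scores in the authors' table, with an arbitrary zero, so levels of different genes cannot be ranked against each other. A change is a difference of log2 levels. SE, 95% confidence intervals, p-values and adjusted p-values came from the moderated linear model of limma fitted to all 15 arrays, with Benjamini-Hochberg adjustment over 18625 probe sets. A gene is called where its adjusted p is under 0.05. SD is that of the 5 arrays of a diet.

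Correlations between arrays ran between 0.931 and 0.969. Hepatocyte markers such as albumin were bright on every array. The mean level of the 7 measured hepatocyte markers lay between 8.10 and 8.16 in genistein, 8.14 and 8.16 in daidzein, and 8.12 and 8.20 in control livers. Albumin stood at 9.29 on all 15 arrays, since quantile normalization gives the same rank the same value. These ranges are therefore a check of the tissue and no measure of equal hepatocyte content. The array daidzein 5 stood apart: it held high levels of 5 pancreatic enzyme genes (Prss1, Cpa1, Cela1, Ctrb1 and Pnlip), whose mean was 6.43 there and between -0.16 and 0.80 on the other 14 arrays. Prss1, a trypsinogen gene, reached 7.59 on daidzein 5. Comparisons with daidzein of the genes given with every array are therefore also shown without that array. Arrays are numbered here as in their titles, whereas the numbers in the descriptions differ from those on 9 of the 15 arrays, and the description of genistein 3 carries the ending "-re" without an explanation. In bulk liver RNA, fewer cells of a type and less RNA per cell cannot be told apart.

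Median changes of the set lay close to those of all probe sets. The median log2 change of the 48 genes was 0.02 in genistein against control livers, -0.03 in daidzein against control livers and 0.00 in genistein against daidzein livers, beside medians of -0.00, 0.00 and 0.00 over all probe sets tested. Neither direction prevailed: 27 genes were higher and 21 lower in genistein than in control livers, 21 higher and 27 lower in daidzein than in control livers, and 26 higher and 22 lower in genistein than in daidzein livers. The median size of a change was 0.13, 0.13 and 0.09 in these 3 comparisons, against 0.12, 0.11 and 0.11 over all probe sets. All 48 passed the filter on low levels, with mean levels between 1.75 and 7.79.

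Only 1 of the 48 genes was called in any of the 3 comparisons. Oat, which codes for ornithine aminotransferase, rose in genistein against daidzein livers, where 0.113% of all probe sets tested were called and 0.0322% were called higher. None was called in genistein against control livers, where 0.322% of all probe sets were, and none in daidzein against control livers, where 0.0161% were. At an unadjusted p under 0.05, limma picked 10 of 48 genes in genistein against control livers beside 11.0% of all probe sets, 3 of them higher beside 5.45% and 7 lower beside 5.5%. It picked 4 of 48 in daidzein against control livers beside 8.25%, a share near that background, with 0 higher beside 4.1% and 4 lower beside 4.14%. It picked 8 of 48 in genistein against daidzein livers beside 9.37%, 5 of them higher beside 4.64% and 3 lower beside 4.73%. In all, 14 genes had such a p in at least 1 comparison and 34 had none. Without daidzein 5, the comparison of genistein with daidzein called 4 probe sets, none of them a gene of the set, and the comparison of daidzein with control called 2. At an unadjusted p under 0.05 it then picked 6 of 48 genes in genistein against daidzein livers beside 9.4% of all probe sets, 5 higher and 1 lower, since Gpt2 and Got1 no longer passed, and again 4 of 48, all lower, in daidzein against control livers beside 7.58%.

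Groups that did not overlap were also few. All 5 genistein arrays lay above all 5 control arrays for Oat, Prodh2 and Kmo, a pattern held by 1.21% of all probe sets tested, and below them for Gldc, which 1.35% did. All 5 daidzein arrays lay below all control arrays for Gldc, as did 0.94% of all probe sets. Genistein arrays lay wholly above daidzein arrays for Oat and Dmgdh, as did 0.966% of all probe sets.

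**Figure D1:**
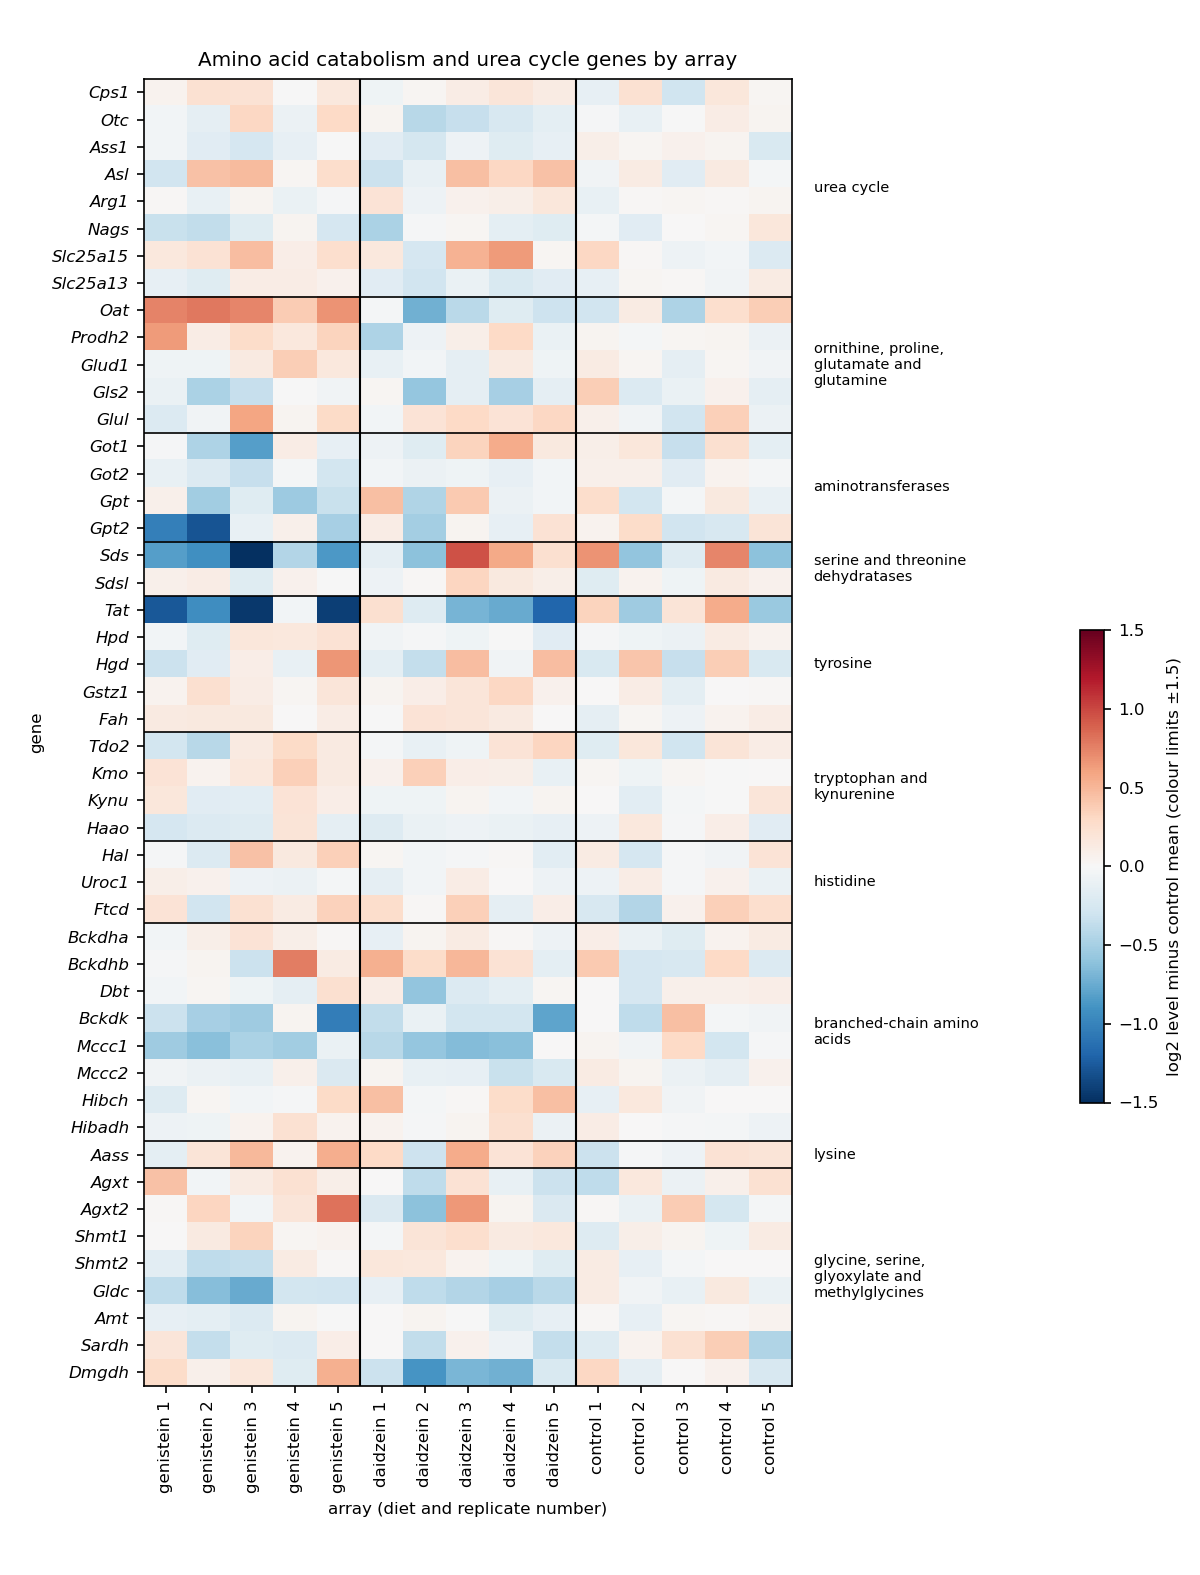
Heat map of 48 genes (rows, grouped by role) on the 15 arrays (columns, genistein, daidzein and control), coloured by log2 level minus the control mean with the colours cut off at the limits of the scale. Oat is red on the 5 genistein arrays, Tat and Sds are blue on most of them, and the 8 urea cycle genes are mostly pale.

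The reaction that makes glutamate semialdehyde from ornithine held the clearest difference between the isoflavones. Oat moves the side-chain amino group of ornithine to 2-oxoglutarate in mitochondria, in hepatocytes around the central vein. Its level was 6.45, 6.50, 6.44, 6.08 and 6.38 on genistein 1 to 5, against 5.67, 4.99, 5.30, 5.52 and 5.40 on daidzein 1 to 5 and 5.42, 5.83, 5.25, 5.96 and 6.08 on control 1 to 5. The lowest genistein array lay well above the highest daidzein array and only just above the highest control array. Means were 6.37 ± 0.17 in genistein, 5.38 ± 0.26 in daidzein and 5.71 ± 0.36 in control livers (SD, n = 5 each). Genistein livers thus held 1.99-fold as much Oat signal as daidzein livers, a log2 change of 0.99 (SE 0.16, interval 0.64 to 1.34) with a limma adjusted p of 0.0328. Against control livers the genistein change was 0.66 (SE 0.16, interval 0.31 to 1.01), 1.58-fold, with a limma adjusted p of 0.108. The change of daidzein against control livers was -0.33 (interval -0.68 to 0.02, adjusted p 0.63), and -0.34 without daidzein 5.

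The size of the Oat difference was steadier than its call. Over 27 other ways of treating the data the change of genistein against daidzein livers stayed between 0.90 and 1.07, while its limma adjusted p ranged between 0.0125 and 0.192 and was under 0.05 in 12 of the 27. Leaving out genistein 1, 2, 3 or 5 gave adjusted p-values of 0.0816, 0.108, 0.0827 and 0.0538. Leaving out daidzein 2, 3, 4 or 5 gave 0.066, 0.0982, 0.0586 and 0.0829, and leaving out control 2 gave 0.0512, so each of these 9 arrays was needed for the call. Without daidzein 5 the change was 1.00.

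**Figure D2:**
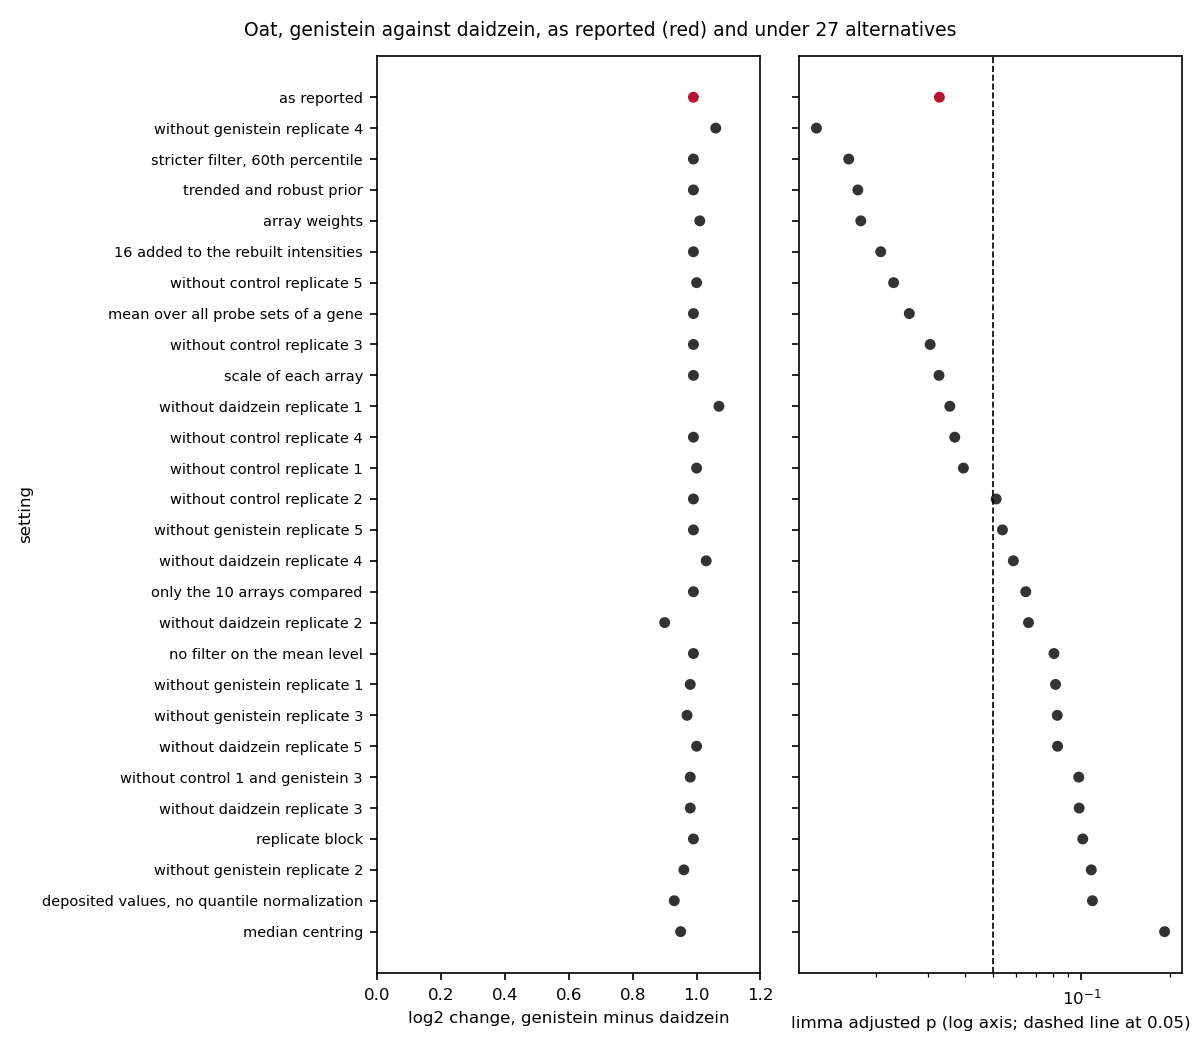
Oat in genistein against daidzein livers as reported (red) and under 27 alternatives (black), with the log2 change on the left axis starting at 0 and the limma adjusted p on a log axis at the right, where the dashed line stands at 0.05. The change stays between 0.90 and 1.07 while the adjusted p falls on both sides of the line.

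The bases upstream of Oat and Gldc are shown because Oat was called between the isoflavones and Gldc had all arrays of both isoflavone diets below the control arrays. Each run holds 250 bases before the start that the RefSeq promoter table of build GRCr8 gives, on the minus strand of chromosome 1. The Oat window, chr1:196797755-196798004, ends where the annotated gene (chr1:196777973-196797754) begins, and the Gldc window, chr1:237375605-237375854, overlaps the annotated gene (chr1:237296753-237375620) at its last bases. Capitals mark the CCAAT box (CCAAT, read on either strand as CCAAT or ATTGG) and the GC box (GGGCGG, or CCGCCC on the other strand), and in Oat the boxes GGGCGG follow one another with no gap.
Oat: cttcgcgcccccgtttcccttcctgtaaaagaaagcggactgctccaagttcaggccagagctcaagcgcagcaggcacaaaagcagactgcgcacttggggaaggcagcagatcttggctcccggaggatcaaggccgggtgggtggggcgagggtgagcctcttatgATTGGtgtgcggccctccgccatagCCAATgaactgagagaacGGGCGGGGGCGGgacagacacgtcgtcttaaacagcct
Gldc: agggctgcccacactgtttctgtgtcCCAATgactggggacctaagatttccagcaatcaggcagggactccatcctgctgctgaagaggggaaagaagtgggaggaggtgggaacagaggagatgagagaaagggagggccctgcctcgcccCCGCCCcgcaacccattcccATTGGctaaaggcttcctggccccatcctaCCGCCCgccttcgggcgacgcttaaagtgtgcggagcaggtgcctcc
A window was found for 40 of the 48 genes. A CCAAT box was present in 21 of these 40 windows (52.5%) and in 34.3% of 27457 promoters of the same length, and a GC box in 19 of 40 (47.5%) and in 32.4%. The letters of the cyclic AMP response element (TGACGTCA) were in none of the 40 windows and in 1.7% of all promoters. At so low a share, finding none in 40 windows tells nothing about these genes. Only the full 8 letters were searched, within 250 bases. A match of letters is a description and no site of binding.

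The other genes of ornithine, proline, glutamate and glutamine metabolism differed less. Prodh2, a proline and hydroxyproline dehydrogenase, had levels of 5.79, 5.27, 5.43, 5.31 and 5.49 on genistein 1 to 5, against 4.69, 5.08, 5.25, 5.46 and 5.06 on daidzein 1 to 5 and 5.20, 5.13, 5.19, 5.20 and 5.07 on control 1 to 5. All genistein arrays lay above all control arrays, whose spread was small, while daidzein 4 reached into the genistein range. The change was 0.30 in genistein against control livers (interval 0.03 to 0.57, limma adjusted p 0.403) and 0.35 in genistein against daidzein livers (interval 0.08 to 0.63, adjusted p 0.373), the second being 0.34 without daidzein 5. Glud1, glutamate dehydrogenase, averaged 6.41 ± 0.18 in genistein, 6.26 ± 0.11 in daidzein and 6.30 ± 0.10 in control livers. Gls2, liver glutaminase, averaged 4.19 ± 0.21 in genistein, 4.12 ± 0.26 in daidzein and 4.38 ± 0.23 in control livers. Glul, glutamine synthetase, which shares the perivenous zone with Oat, averaged 5.02 ± 0.31 in genistein, 5.08 ± 0.14 in daidzein and 4.88 ± 0.24 in control livers. None of these had an unadjusted p under 0.05 in any comparison. The change of Glul in genistein against daidzein livers was -0.06 (interval -0.38 to 0.25). Whether the Oat difference went with the zone was not tested.

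The 8 genes of the urea cycle and its mitochondrial carriers had a median change of 0.03 in genistein against control, -0.04 in daidzein against control and 0.04 in genistein against daidzein livers. None was called, and no change was over 0.29 in size. Cps1, which makes carbamoyl phosphate from ammonia as the first committed step, averaged 7.37 ± 0.10 in genistein, 7.31 ± 0.10 in daidzein and 7.24 ± 0.21 in control livers. Another probe set of Cps1 had changes of the other sign, -0.10 in genistein and -0.16 in daidzein against control livers. Arg1, the arginase that releases urea, averaged 7.03 ± 0.07 in genistein, 7.15 ± 0.11 in daidzein and 7.07 ± 0.06 in control livers and had the smallest spread of all 48 genes, a pooled SD of 0.08. Its change in genistein against control livers was -0.03 with an interval of -0.18 to 0.12.

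Otc, ornithine transcarbamylase, had the lowest p of the group. Its level was 6.00, 5.91, 6.36, 5.95 and 6.34 on genistein 1 to 5, against 6.09, 5.63, 5.70, 5.81 and 5.91 on daidzein 1 to 5 and 6.03, 5.93, 6.04, 6.16 and 6.09 on control 1 to 5. The groups overlapped, with daidzein 1 inside the genistein range. The change in genistein against daidzein livers was 0.29 (interval 0.05 to 0.52, limma adjusted p 0.409), and 0.31 without daidzein 5.

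Slc25a13, citrin, the carrier that brings aspartate to the cytosol, had levels of 5.61, 5.55, 5.84, 5.83 and 5.79 on genistein 1 to 5, against 5.56, 5.44, 5.63, 5.49 and 5.56 on daidzein 1 to 5 and 5.60, 5.76, 5.74, 5.68 and 5.85 on control 1 to 5. Daidzein arrays sat at the low end and overlapped both other diets. The change was -0.19 in daidzein against control (interval -0.36 to -0.03, limma adjusted p 0.551) and 0.19 in genistein against daidzein livers (interval 0.02 to 0.35, adjusted p 0.463). Without daidzein 5 these were -0.20 and 0.19. Ass1 and Asl, which make and split argininosuccinate, had changes of -0.12 and 0.18 in genistein against control and -0.17 and 0.15 in daidzein against control livers. Nags, whose product N-acetylglutamate switches Cps1 on, had changes of -0.22 in genistein and -0.16 in daidzein against control livers. Slc25a15, the ornithine carrier, had 0.23 in genistein and 0.22 in daidzein against control livers. Limma adjusted p-values of these 4 genes were no lower than 0.483 in either comparison.

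**Figure D3:**
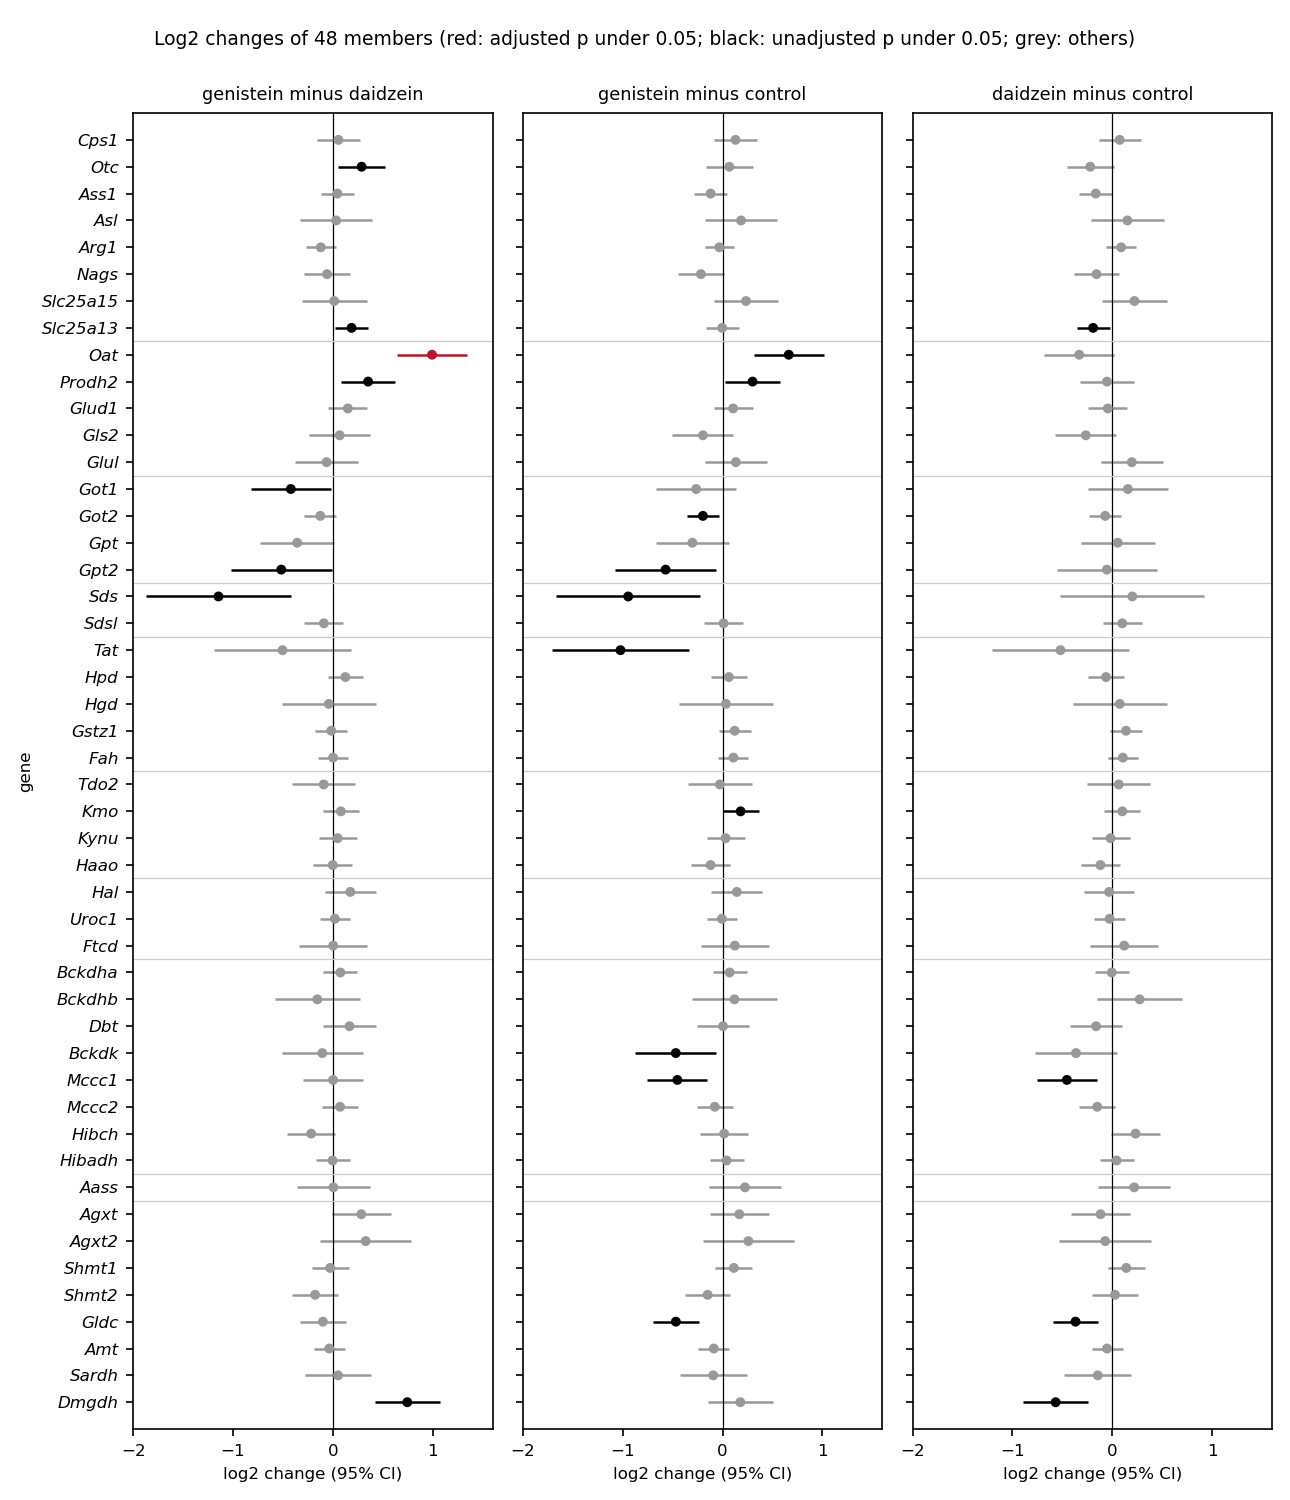
Log2 changes of the 48 genes (points) with 95% confidence intervals (lines) in genistein against daidzein, genistein against control and daidzein against control livers, red for the limma adjusted p under 0.05, black for an unadjusted p under 0.05 and grey otherwise. Oat in genistein against daidzein livers is the only red point, and the widest intervals are those of Sds and Tat.

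The 4 aminotransferases of alanine and aspartate had negative changes in genistein livers against both other diets. Their median change was -0.28 in genistein against control and -0.39 in genistein against daidzein livers, with 4 of 4 lower in each and none called, while 2 were higher and 2 lower in daidzein against control livers (median 0.00). The 2 genistein comparisons share the genistein arrays.

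Gpt2, the mitochondrial alanine aminotransferase, had levels of 2.28, 2.02, 3.21, 3.38 and 2.82 on genistein 1 to 5, against 3.43, 2.80, 3.35, 3.19 and 3.52 on daidzein 1 to 5 and 3.37, 3.59, 3.03, 3.07 and 3.51 on control 1 to 5. Genistein 1 and 2 were far below every array of the other diets, and genistein 3 and 4 were within their range. The change was -0.57 in genistein against control (SE 0.24, interval -1.07 to -0.07, limma adjusted p 0.388) and -0.52 in genistein against daidzein livers (interval -1.02 to -0.01, adjusted p 0.521). Without genistein 2 the change against daidzein was -0.34, and without daidzein 5 it was -0.45 (limma unadjusted p 0.0983, adjusted p 0.631). Another probe set of Gpt2 gave -0.33 in genistein against control and -0.45 in genistein against daidzein livers (limma adjusted p 0.178). Gpt, the cytosolic form, averaged 4.13 ± 0.26 in genistein, 4.49 ± 0.37 in daidzein and 4.44 ± 0.21 in control livers, a change of -0.30 (interval -0.67 to 0.07) against control.

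Got1 and Got2 are the cytosolic and mitochondrial aspartate aminotransferases of the malate-aspartate shuttle. Got1 had levels of 3.87, 3.43, 3.07, 4.01 and 3.77 on genistein 1 to 5, against 3.82, 3.71, 4.23, 4.46 and 4.04 on daidzein 1 to 5 and 3.98, 4.07, 3.55, 4.13 and 3.75 on control 1 to 5. Got2 had 6.20, 6.11, 5.97, 6.29 and 6.04 on genistein 1 to 5, against 6.28, 6.23, 6.26, 6.20 and 6.28 on daidzein 1 to 5 and 6.40, 6.39, 6.15, 6.37 and 6.29 on control 1 to 5. All groups overlapped for both genes, and genistein 3 was the lowest array of each. The Got1 change was -0.42 in genistein against daidzein livers (interval -0.82 to -0.02, limma adjusted p 0.507), and -0.42 without daidzein 5 (unadjusted p 0.0584, adjusted p 0.558). The Got2 change was -0.20 in genistein against control livers (interval -0.36 to -0.04, adjusted p 0.338).

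Sds and Tat had the largest changes of the set and also its largest spread between arrays of a diet. Sds codes for the dehydratase that turns serine into pyruvate and ammonia. Its level was 1.30, 1.21, 0.44, 1.68 and 1.26 on genistein 1 to 5, against 1.98, 1.50, 3.08, 2.70 and 2.36 on daidzein 1 to 5 and 2.79, 1.53, 1.93, 2.86 and 1.51 on control 1 to 5. Only genistein 4 reached into the range of the other diets, and the lower control arrays were close to it. Means were 1.18 ± 0.45 in genistein, 2.32 ± 0.61 in daidzein and 2.12 ± 0.66 in control livers (SD, n = 5 each). The change in genistein against daidzein livers was -1.15 (SE 0.34, interval -1.87 to -0.42, limma adjusted p 0.231), and in genistein against control livers -0.95 (interval -1.67 to -0.22, adjusted p 0.305). Daidzein against control livers gave 0.20 with an interval of -0.52 to 0.92. Without daidzein 5 the changes with daidzein were -1.14 for genistein against daidzein and 0.19 for daidzein against control livers. The related gene Sdsl, a serine dehydratase-like enzyme, had a change of 0.01 in genistein against control (interval -0.18 to 0.21) and 0.10 in daidzein against control livers.

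Tat codes for the first enzyme of tyrosine breakdown. Its level was 3.75, 4.08, 3.56, 4.97 and 3.60 on genistein 1 to 5, against 5.26, 4.82, 4.31, 4.26 and 3.82 on daidzein 1 to 5 and 5.35, 4.48, 5.21, 5.58 and 4.46 on control 1 to 5. Genistein arrays other than genistein 4 lay below every control array, and the daidzein arrays spanned both ranges. Means were 3.99 ± 0.58 in genistein, 4.50 ± 0.56 in daidzein and 5.01 ± 0.52 in control livers (SD, n = 5 each). The change in genistein against control livers was -1.02 (SE 0.32, interval -1.71 to -0.34, limma adjusted p 0.222). It was -0.52 in daidzein against control livers (interval -1.20 to 0.17, adjusted p 0.7), or -0.35 without daidzein 5, and -0.50 in genistein against daidzein livers (interval -1.19 to 0.18), or -0.67 without daidzein 5.

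The enzymes that follow Tat had small changes. Hpd, Hgd, Gstz1 and Fah carry tyrosine's carbon from 4-hydroxyphenylpyruvate through homogentisate to fumarate and acetoacetate. Their changes were 0.06, 0.03, 0.12 and 0.11 in genistein against control and -0.06, 0.07, 0.14 and 0.11 in daidzein against control livers, none with an unadjusted p under 0.05. Hgd was imprecise, with an interval of -0.44 to 0.50 for genistein, whereas that of Fah was -0.04 to 0.26.

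**Figure D4:**
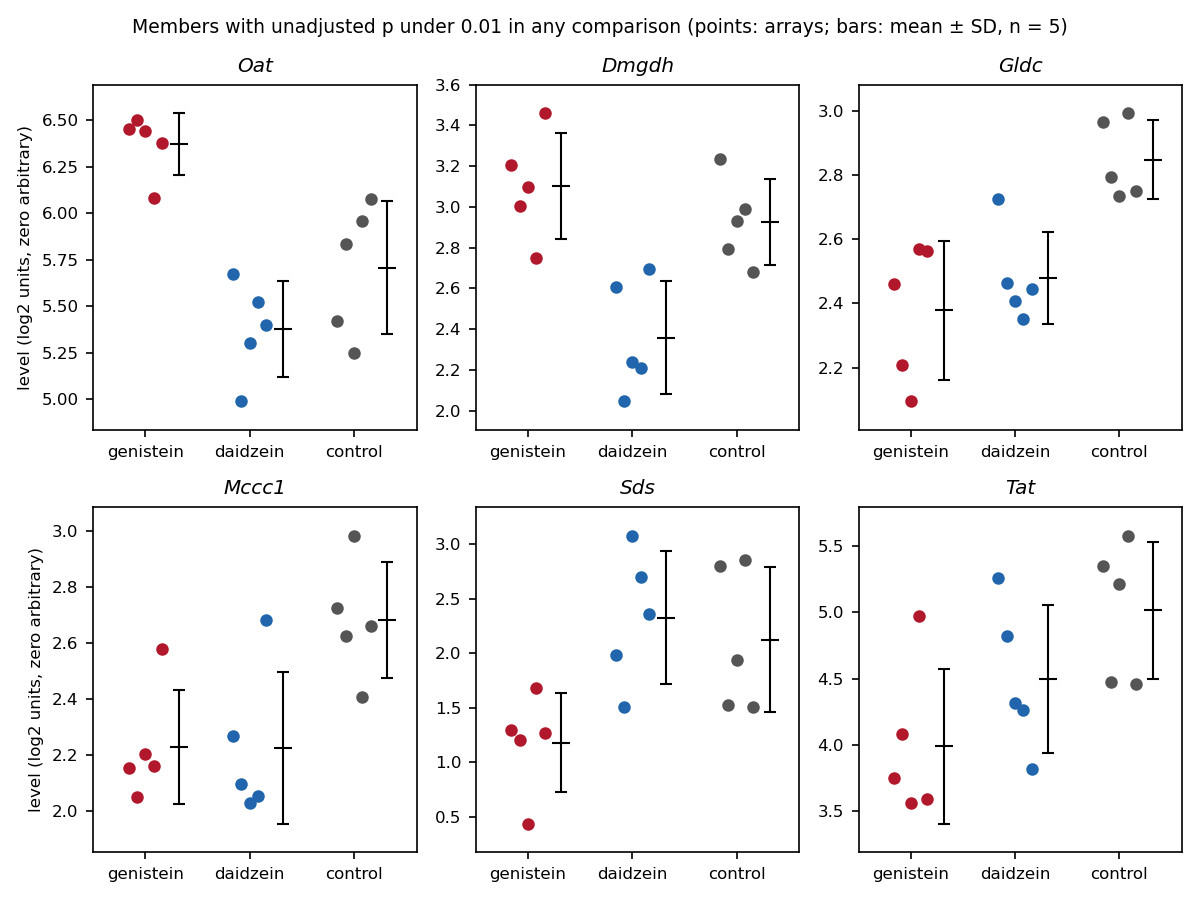
Log2 levels (arbitrary zero, a separate axis for each gene) of the 6 genes with an unadjusted p under 0.01 in any comparison, with 1 point per array in genistein, daidzein and control livers and bars for mean ± SD over 5 arrays. Oat and Dmgdh separate genistein from daidzein arrays, Gldc separates both isoflavone diets from control, and Mccc1, Sds and Tat overlap.

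In the glycine, serine, glyoxylate and methylglycine group, Gldc and Dmgdh stood out with different patterns. Gldc is the glycine decarboxylase of the mitochondrial glycine cleavage system. Its level was 2.46, 2.21, 2.10, 2.57 and 2.56 on genistein 1 to 5, against 2.72, 2.47, 2.41, 2.35 and 2.45 on daidzein 1 to 5 and 2.97, 2.79, 2.73, 2.99 and 2.75 on control 1 to 5. Every genistein array and every daidzein array lay below every control array, with daidzein 1 next to the lowest control array. Means were 2.38 ± 0.22 in genistein, 2.48 ± 0.14 in daidzein and 2.85 ± 0.12 in control livers (SD, n = 5 each). The changes were -0.47 in genistein against control (SE 0.11, interval -0.70 to -0.24, limma adjusted p 0.0847) and -0.37 in daidzein against control livers (SE 0.11, interval -0.60 to -0.14, adjusted p 0.382). These comparisons share the control arrays. The isoflavones differed by -0.10 (interval -0.33 to 0.13), genistein minus daidzein, or by -0.11 without daidzein 5.

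The Gldc change of genistein passed the threshold in 4 of 27 alternatives, among them leaving out genistein 4 (limma adjusted p 0.0429), and the daidzein change was -0.36 without daidzein 5. A dimmer probe set of Gldc, with a mean level of -0.27, gave -0.36 for genistein and 0.03 for daidzein against control, so the probe sets disagreed for daidzein. Amt, the aminomethyltransferase of the same complex, had changes of -0.09 in genistein (interval -0.24 to 0.07) and -0.05 in daidzein against control livers (interval -0.21 to 0.10). Gcsh, its hydrogen carrier and no member of the set, was singled out after its values were seen. All Gcsh arrays of both isoflavone diets lay below all control arrays, as did 1.35% of all probe sets for genistein and 0.94% for daidzein. Of the 34 tested genes of further amino acid enzymes, which include Gcsh, 4 lay wholly below control for genistein and 3 for daidzein. The Gcsh changes were -0.24 in genistein (limma adjusted p 0.173) and -0.23 in daidzein livers (adjusted p 0.382), or -0.22 without daidzein 5.

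Dmgdh, dimethylglycine dehydrogenase of the choline and betaine breakdown route, had levels of 3.21, 3.01, 3.10, 2.75 and 3.46 on genistein 1 to 5, against 2.61, 2.05, 2.24, 2.21 and 2.69 on daidzein 1 to 5 and 3.24, 2.79, 2.93, 2.99 and 2.68 on control 1 to 5. All genistein arrays lay above all daidzein arrays, and genistein and control arrays overlapped widely. Means were 3.10 ± 0.26 in genistein, 2.36 ± 0.28 in daidzein and 2.93 ± 0.21 in control livers (SD, n = 5 each). The change in genistein against daidzein livers was 0.75 (SE 0.15, interval 0.42 to 1.07), 1.68-fold, with a limma adjusted p of 0.0809. In daidzein against control livers it was -0.57 (interval -0.89 to -0.24, adjusted p 0.346), and in genistein against control livers 0.18 (interval -0.15 to 0.50). Without daidzein 5 these became 0.83 (adjusted p 0.096) and -0.65 (adjusted p 0.352) for the comparisons with daidzein. The genistein against daidzein change passed the threshold in 4 of 27 alternatives, among them leaving out genistein 4 (adjusted p 0.0229).

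Markers of other cells that liver samples can hold were compared between daidzein and control livers, where 4.14% of all probe sets were lower at an unadjusted p under 0.05. Of 8 stellate cell markers, 7 were lower in daidzein than in control livers, 4 of them at an unadjusted p under 0.05 and none called, and their mean level ran between 2.00 and 2.10 in genistein, 1.79 and 1.94 in daidzein, and 2.01 and 2.17 in control livers. Of 6 macrophage markers, 5 were lower, 3 of them at an unadjusted p under 0.05 and none called, with mean levels between 2.43 and 3.05 in genistein, 2.24 and 2.76 in daidzein, and 2.73 and 3.04 in control livers. Without daidzein 5 these counts at an unadjusted p were 3 and 2, beside 3.74% of all probe sets. The other lists of liver and blood cells did not move as one: 3 of 4 endothelial and 3 of 5 lymphocyte markers were lower, while 2 of 3 cholangiocyte and 3 of 3 red cell markers were higher, none at an unadjusted p under 0.05. In genistein against daidzein livers, 7 of 8 stellate cell, 5 of 6 macrophage and 4 of 4 endothelial markers were higher, and none was called. At an unadjusted p under 0.05, limma picked 3, 0 and 1 of them as higher, beside 4.64% of all probe sets. Without daidzein 5 it again picked 3, 0 and 1, beside 4.35%. Of the others, 3 of 5 lymphocyte, 1 of 3 cholangiocyte and 1 of 3 red cell markers were higher. In genistein against control livers, 5 of 6 macrophage and 3 of 8 stellate cell markers were lower, and none was called. At an unadjusted p under 0.05, limma picked 0 and 1 of them as lower, beside 5.5% of all probe sets. Of the others, 2 of 4 endothelial, 2 of 5 lymphocyte, 1 of 3 cholangiocyte and 2 of 3 red cell markers were lower. The part of these markers in the Oat, Dmgdh, Gldc and Mccc1 values was not tested.

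Sardh, sarcosine dehydrogenase, which follows Dmgdh in the same route, averaged 3.96 ± 0.22 in genistein, 3.91 ± 0.20 in daidzein and 4.05 ± 0.33 in control livers. Its change in genistein against daidzein livers was 0.05 with an interval of -0.28 to 0.39, beside 0.75 for Dmgdh. The serine hydroxymethyltransferases Shmt1 and Shmt2, cytosolic and mitochondrial, had changes of 0.11 and -0.15 in genistein and 0.14 and 0.03 in daidzein against control livers. Agxt and Agxt2, which pass amino groups to glyoxylate, had changes of 0.29 and 0.33 in genistein against daidzein livers, with intervals of -0.01 to 0.58 and -0.13 to 0.79. None of these 5 genes had an unadjusted p under 0.05.

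Among 8 genes of branched-chain amino acid breakdown, Mccc1 and Bckdk had the lowest p-values. Mccc1 is the biotin-carrying subunit of methylcrotonyl-CoA carboxylase in leucine breakdown. Its level was 2.15, 2.05, 2.20, 2.16 and 2.58 on genistein 1 to 5, against 2.27, 2.10, 2.03, 2.05 and 2.68 on daidzein 1 to 5 and 2.73, 2.63, 2.98, 2.41 and 2.66 on control 1 to 5. Arrays 1 to 4 of both isoflavone diets lay below every control array, whereas array 5 of each lay within the control range. The change was -0.45 in genistein against control (SE 0.14, interval -0.75 to -0.15, limma adjusted p 0.218) and -0.45 in daidzein against control livers (interval -0.76 to -0.15, adjusted p 0.391). Without daidzein 5 the daidzein change was -0.57 (adjusted p 0.298). The isoflavones differed by 0.00 with an interval of -0.30 to 0.30, or by 0.12 without daidzein 5. Mccc2, the partner subunit, had changes of -0.08 in genistein (interval -0.26 to 0.10) and -0.15 in daidzein against control livers (interval -0.33 to 0.03).

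Bckdk is the kinase that switches off the branched-chain 2-oxoacid dehydrogenase. Its level was 2.90, 2.72, 2.68, 3.25 and 2.18 on genistein 1 to 5, against 2.85, 3.12, 2.93, 2.93 and 2.42 on daidzein 1 to 5 and 3.22, 2.83, 3.66, 3.19 and 3.16 on control 1 to 5. The groups overlapped, and genistein 5 and daidzein 5 were the lowest arrays. The changes were -0.47 in genistein against control (interval -0.88 to -0.06, limma adjusted p 0.383) and -0.36 in daidzein against control livers (interval -0.77 to 0.04, adjusted p 0.649), the daidzein value being -0.25 without daidzein 5. The dehydrogenase subunits Bckdha, Bckdhb and Dbt had changes of 0.07, 0.12 and 0.00 in genistein against control and -0.00, 0.28 and -0.16 in daidzein against control livers. Hibch and Hibadh of valine breakdown had changes of 0.02 and 0.04 in genistein and 0.23 and 0.04 in daidzein against control livers.

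None of the genes of tryptophan, histidine and lysine breakdown was called. Kmo, kynurenine 3-monooxygenase, had levels of 4.44, 4.29, 4.40, 4.59 and 4.37 on genistein 1 to 5, against 4.30, 4.60, 4.34, 4.32 and 4.13 on daidzein 1 to 5 and 4.26, 4.18, 4.27, 4.24 and 4.24 on control 1 to 5. All genistein arrays lay above the tightly grouped control arrays, by as little as the gap between genistein 2 and control 3. The change in genistein against control livers was 0.18 (interval 0.00 to 0.36, limma adjusted p 0.455). That of daidzein against control livers was 0.10, or 0.15 without daidzein 5. Tdo2, the rate-limiting dioxygenase of the pathway, averaged 7.05 ± 0.30 in genistein, 7.14 ± 0.19 in daidzein and 7.07 ± 0.23 in control livers, and Kynu and Haao further down had no change over 0.12 in size against control.

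Hal, histidine ammonia-lyase, had levels of 4.17, 4.00, 4.64, 4.34 and 4.55 on genistein 1 to 5, against 4.22, 4.16, 4.18, 4.22 and 4.04 on daidzein 1 to 5 and 4.32, 3.94, 4.18, 4.15 and 4.40 on control 1 to 5. Its groups overlapped, and the change in genistein against daidzein livers was 0.17 (interval -0.08 to 0.43), or 0.15 without daidzein 5. Uroc1 and Ftcd, the later histidine enzymes, had changes of -0.01 and 0.12 in genistein and -0.03 and 0.12 in daidzein against control livers. Aass, which starts lysine breakdown, had changes of 0.23 in genistein (interval -0.14 to 0.59) and 0.22 in daidzein against control livers (interval -0.14 to 0.58).

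At the matched dose of 2 g/kg, 1 of 48 genes, Oat, was thus called between the isoflavones after adjustment over all probe sets. That call held in 12 of 27 alternatives and was lost without daidzein 5 (limma adjusted p 0.0829). The intervals of the differences had a median half-width of 0.25 log2 units over the set, and ran between 0.15 and 0.72, so the other genes are not shown to respond alike to both compounds. Differences over 0.5 in size were found for 5 genes, Oat, Sds, Dmgdh, Gpt2 and Tat, beside 3.98% of all probe sets tested.

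The arrays of a diet differed in how far the whole set departed from the control mean. Genistein arrays had between 3 (genistein 4) and 8 (genistein 5) of 48 genes more than 0.5 away from it, daidzein arrays between 1 (daidzein 1) and 8 (daidzein 2), and control arrays between 0 (control 3) and 2. Control arrays are measured against their own mean, so their counts are lower by construction. Of the 13 genes with more than 1 probe set, Cps1, Gldc, Gpt2, Sardh, Sdsl, Slc25a13 and Slc25a15 had tested probe sets whose changes against control differed in sign for at least 1 isoflavone. For Cps1 the other probe set gave -0.10 for genistein and -0.16 for daidzein against control, beside 0.13 and 0.07 for the probe set used. All genistein arrays of that other probe set lay below all control arrays, as did 1.35% of all probe sets. Its daidzein change had a limma unadjusted p of 0.0241 (adjusted p 0.542).

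Other genes around these pathways were read from lists of the same kind. Among 34 tested genes of further amino acid enzymes, 2 were called lower in genistein against control livers, beside 0.322% of all probe sets called. None were called in the other comparisons. In genistein against control livers 16 were higher and 18 lower, with a median change of -0.09. In daidzein against control livers 9 were higher and 25 lower, with a median of -0.12, or 6 and 28 without daidzein 5. In genistein against daidzein livers 19 were higher and 15 lower. At an unadjusted p under 0.05, limma picked 1 higher and 5 lower for genistein, beside 5.45% and 5.5%. For daidzein it picked 0 higher and 5 lower, beside 4.1% and 4.14%. Crym, which codes for mu-crystallin, a thyroid hormone binding protein with ketimine reductase activity, had levels of 2.12, 1.21, 1.78, 2.35 and 2.24 on genistein 1 to 5, against 3.48, 3.33, 2.98, 2.91 and 2.59 on control 1 to 5. It fell by 1.12 on the log2 scale (limma adjusted p 0.0368), and all genistein arrays lay below all control arrays. In daidzein against control livers its change was -0.92 (adjusted p 0.241), or -0.93 without daidzein 5. Its daidzein arrays, at 2.34, 2.01, 2.20, 1.95 and 2.17, also lay below all control arrays. Hao1, the glycolate oxidase that makes glyoxylate, fell by 0.37 in genistein against control livers (adjusted p 0.0455), with means of 6.32 in genistein, 6.46 in daidzein and 6.70 in control livers. All genistein and all daidzein arrays of Hao1 lay below all control arrays. Such a separation was held by 1.35% of all probe sets for genistein and 0.94% for daidzein. The Crym call held in 11 and the Hao1 call in 7 of 27 alternatives. Of the arrays left out singly, only genistein 4, genistein 5 and control 5 could be spared for Crym and only genistein 4 for Hao1, and the other omissions gave adjusted p-values up to 0.111 and 0.126. Aadat, an aminotransferase of kynurenine and aminoadipate, had a change of 0.40 in genistein against daidzein livers (adjusted p 0.171), or 0.34 without daidzein 5.

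No gene was called in the lists of amino acid transporters (15 tested), regulators of amino acid catabolism (16), the glucocorticoid and cyclic AMP response (15) or the amino acid deprivation response governed by ATF4 (12). At an unadjusted p under 0.05, limma picked 3, 3, 5 and 2 of them in genistein against control livers, beside 11.0% of all probe sets. The glucocorticoid and cyclic AMP list, which holds Tat and Sds, split in direction: Mt2A, a metallothionein, had a change of 1.99 (limma adjusted p 0.0709) and Sgk1, a kinase induced by glucocorticoids, -1.92 (adjusted p 0.152) in genistein against control livers, with 7 of 15 genes higher and 8 lower. Slc7a5, the large neutral amino acid transporter, had a change of 0.40 in genistein against daidzein livers (adjusted p 0.126), or 0.41 without daidzein 5. All its genistein arrays lay above all its daidzein arrays, as did 0.966% of all probe sets. It was named for its low p among the 15 transporters, and its mean level of 0.10 was close to the filter level of -0.3.

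By zone, 9 of 12 periportal genes were lower in genistein than in control livers (median -0.13). Of these, 3 had an unadjusted p under 0.05 by limma, beside 5.5% of all probe sets. In the same comparison 6 of 10 perivenous genes were higher (median 0.09). Of the 10, limma picked 1 as higher and 1 as lower at that threshold, beside 5.45% and 5.5%. In daidzein against control livers 7 of 12 periportal genes (median -0.10) and 7 of 10 perivenous genes (median -0.11) were lower. At an unadjusted p under 0.05, limma picked 2 and 1 of them, all lower, beside 4.14%. Without daidzein 5 it picked 1 and 1, beside 3.74%. In genistein against daidzein livers 7 of 12 periportal genes (median 0.05) and 7 of 10 perivenous genes (median 0.08) were higher. Of the 12, limma picked 1 as higher and 2 as lower at an unadjusted p under 0.05, beside 4.64% and 4.73%. Without daidzein 5 it picked 0 and 2. Of the 10, it picked 3, all higher, or 2 without daidzein 5. These lists share Tat, Sds, Oat and other genes with the set. Of the perivenous genes, Oat alone was called, in genistein against daidzein livers, and Rgn, regucalcin, had changes of -0.30 in genistein (limma adjusted p 0.225) and -0.36 in daidzein against control livers (adjusted p 0.346), or -0.33 without daidzein 5.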

How the data were processed

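Liver total RNA of 15 rat samples, 5 per diet, was labelled with biotin and hybridised to 1-channel Affymetrix rat arrays, per the labels' protocols. The authors deposited a table of 31099 probe sets whose unit is a score: a log signal standardized within each array. Its background, probe summary and scale, and any scan dates, are not given in the sources, so batches could not be examined. The scale was inferred from the values: after exponentiation, 584 of 584 gaps among frequent values came out as whole steps (tolerance 0.001). All values were multiplied by a common factor of 2.60 log2 units per deposited unit (arrays 2.54 to 2.79). Array medians differed by over 0.1 (0.00111 to 0.127 in deposited units), so the arrays were quantile normalized. Of the 31042 probe sets without controls, the 18625 from the 40th percentile of the mean upward were tested with limma 3.58.1 in R 4.3.3 (lmFit and eBayes, 12 residual and 2.58 prior degrees of freedom). The 260 missing values lay in probe sets that were not tested. The limma fit was tested on simulated data with independent normal noise, whereas the scale, normalization, filter and probe set choice were not. The number of arrays limits the precision.

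The platform annotation gave 20832 probe sets 1 symbol and 436 several. Genes with an unadjusted p under 0.05 in any comparison, and the lowest p of each role group of over 1 gene, are named with all their values. From the other lists, called genes or the 2 of lowest p in a comparison could be named, and Gcsh was singled out beside Gldc after its values were seen. Members and lists were chosen with earlier results of these data known. Arrays carry their title numbers, which differ from the description numbers on 9 arrays. Title numbers were checked as pairs on the residuals: 1 of 15 pairs with the same number correlated above 0.1 (-0.163 to 0.109), so the arrays were not paired. Alternatives changed the normalization, scale, background, filter, arrays, weights, prior and probe set rule.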

Additional observations from a re-analysis of the deposited data

Results flagged for a closer look

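Among the 144 sets of 5 arrays (48 genes in 3 diets), 6 had an array far from the other 4, by a gap over 0.71 of the range, and chance alone gives about 1 in 20 such sets. Ass1 was 7.66 in control 5, against 7.92 on the next control array. Arg1 was 6.96 in control 1, next to 7.08. Fah was 6.40 in genistein 4, next to 6.51, and Haao was 5.32 in genistein 4, next to 4.99. Dbt was 2.20 in control 2, next to 2.45, and Amt was 2.92 in control 2, next to 3.06. None of these genes was called in any comparison.

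The mean level of 5 pancreas markers was 6.43 in daidzein 5, and the next daidzein array had 0.39. Of the 15 genes named with every value, changes of daidzein against control without that array ranged between those of Dmgdh (-0.65) and Sds (0.19).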

How the results depend on the processing

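No value changed direction among the members' changes with an unadjusted p under 0.05, Crym and Hao1 under the 27 alternatives, and the median change of the members stayed between -0.05 and 0.06. The calls were less steady, and except where the construction shows it the cause was not tested. In genistein against control livers, 60 probe sets were called as reported, 34 with median centring, 14 with no filter, 124 with the 60th percentile filter, 0 with only the 10 arrays compared (1896 at an unadjusted p under 0.05 by limma), 17 with the replicate block, 140 with array weights, 110 with a trended and robust prior, and 5 (without control 3) to 203 (without genistein 4) when single arrays were left out. In daidzein against control livers the 3 calls became 7, 7 and 6 with the 60th percentile, the weights and the robust prior, and 2 to 8 (without daidzein 1) without single arrays. In genistein against daidzein livers the 21 calls became 9 with median centring, 35 with 16 added to the rebuilt intensities, 3 with no filter, 67 with the 60th percentile, 2 with only the 10 arrays, 2 with the replicate block, 74 with weights, 53 with the robust prior, and 3 to 136 without single arrays.

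Members called in genistein against control livers were 0, and 1 (Gldc) with the 60th percentile, weights or robust prior, with 0 to 1 (without genistein 4) when an array was left out. In genistein against daidzein livers the 1 call (Oat) became 0 without quantile normalization, with median centring, with no filter, with only the 10 arrays or with the replicate block, 2 (Oat and Dmgdh) with the 60th percentile, weights or robust prior, and 0 to 2 (without genistein 4) when an array was left out. Without control 1 and genistein 3, the arrays with the lowest mean correlation, an alternative added after seeing the data, the 3 comparisons called 1, 3 and 3 probe sets and 0 members. The replicate block, a pairing by title numbers that the residuals did not bear out, gave Oat an adjusted p of 0.101 in genistein against daidzein livers. In dim probe sets changes depend on the background that was subtracted.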
